A study of Mus musculus with 6 samples.

Results

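The miRNAs described here are those of 5 mouse precursors known from inflammation and low oxygen: miR-21a, miR-146a, miR-146b, miR-155 and miR-210. Every listed mature miRNA, of either arm, whose name carries one of these stems was taken, which gave 7 of the 685 mature miRNAs measured: mmu-miR-21a-5p, mmu-miR-21a-3p, mmu-miR-146a-5p, mmu-miR-146b-5p, mmu-miR-146b-3p, mmu-miR-155-5p and mmu-miR-210-3p. They were measured by small RNA sequencing in N2a cells, a mouse neuroblastoma line. All cells had first been made neuron-like with 10 µM retinoic acid in low serum over 96 h. The treated group then received 5 µM RSL3 for 24 h and the control group the solvent DMSO, with 3 libraries in each group. RSL3 inhibits GPX4, the enzyme that reduces lipid peroxides, and was used by the submitters to bring about ferroptosis, an iron-dependent cell death. The model is 1 tumour line, and whether the 3 libraries of a group stem from independent cultures is not stated in the labels. The p-values therefore describe the spread among these libraries, which may be technical.

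A miRNA is cut from a hairpin precursor, and one arm (5p or 3p) is usually kept in the silencing complex, where its seed, bases 2 to 8, pairs with target mRNAs. Transcription of the miR-146a and miR-155 genes is induced by NF-kB after Toll-like receptor or cytokine signals. miR-146a damps that signalling through Irak1 and Traf6, whereas miR-155 sustains it. miR-21 is an abundant miRNA of growing and injured cells that represses Pdcd4, and miR-210 is the best known target of the hypoxia factor HIF-1 among miRNAs and represses the iron-sulfur scaffold gene Iscu.

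The mature sequences below show which members can act on the same targets, with the seed in capitals (RefSeq, GRCm38.p6, 5′ to 3′). All 7 members had a sequence, and miR-21c was added because it was the only listed miRNA outside the 5 stems, of the 554 listed miRNAs with a sequence in that table, that shared a member's seed.
miR-21a-5p: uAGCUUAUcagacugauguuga
miR-21c: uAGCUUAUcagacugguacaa
miR-146a-5p: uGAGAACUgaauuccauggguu
miR-146b-5p: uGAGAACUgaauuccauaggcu
miR-155-5p: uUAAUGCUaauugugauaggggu
miR-210-3p: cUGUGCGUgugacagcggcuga
miR-21a-3p: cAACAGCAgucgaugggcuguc
miR-146b-3p: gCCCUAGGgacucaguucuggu

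miR-146a-5p and miR-146b-5p have 1 seed and 20 of 22 bases in common. They differ by G18A and U21C, counted from the 5′ end with the miR-146a-5p base first, so reads that reach the 3′ end tell them apart. The first 15 bases of miR-21a-5p and miR-21c are the same. The other 4 members each had a seed that no other listed miRNA with a sequence carried.

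The precursors lie at separate places in the genome (GRCm38, with gene annotation from GENCODE M21). The miR-21a hairpin is on the minus strand of chromosome 11, from 86584067 to 86584158, inside an exon and UTR annotated for Vmp1, an autophagy gene on that strand. The miR-146a hairpin is also on the minus strand of chromosome 11, from 43374397 to 43374461. It overlapped no other annotated gene, and the nearest long gene was the lincRNA Gm12148, 11021 bp away. Chromosome 19 holds the miR-146b hairpin, on its plus strand between 46342762 and 46342870, within an intron of Mfsd13a. The miR-155 hairpin lies in an exon of its host lincRNA Mir155hg on chromosome 16 (plus strand, 84714140 to 84714204). The miR-210 hairpin is on the minus strand of chromosome 7, from 141221384 to 141221493, outside other genes and 2726 bp from Rassf7.

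The hairpins of miR-146b, for which both arms were measured, and of miR-210, for which the 3p arm was measured, are shown with the listed mature arms in capitals.
Mir146b: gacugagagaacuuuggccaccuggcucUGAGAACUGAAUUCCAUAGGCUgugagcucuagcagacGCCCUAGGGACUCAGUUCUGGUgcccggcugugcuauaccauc
Mir210: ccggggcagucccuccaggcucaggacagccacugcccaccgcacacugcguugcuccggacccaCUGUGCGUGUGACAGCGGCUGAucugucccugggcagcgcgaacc

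Levels are given in CPM, counts scaled by the authors to a common library size. The libraries held 3406276 to 6058006 miRNA reads, and 1 read was worth 0.157 to 0.314 CPM. The labels call the cells neurons, and the neuronal markers miR-124-3p (means of 148 CPM with DMSO and 179 CPM with RSL3), miR-9-5p (3240 and 4259 CPM) and miR-128-3p (2156 and 2019 CPM) were all detected. The 10 listed neuronal entries, led by miR-7a-5p, summed to 224536 to 308556 CPM with DMSO and 193044 to 248432 CPM with RSL3, which overlapped. Most of that sum was miR-7a-5p (means of 225023 CPM with DMSO and 181728 CPM with RSL3). The listed leukocyte markers miR-142a-5p and miR-150-5p together reached only 3.15 to 7.21 CPM with DMSO and 4.83 to 9.10 CPM with RSL3. The 8 listed fibroblast or smooth muscle entries were abundant, led by miR-143-3p at rank 5 by mean CPM. They summed to 35602 to 38832 CPM with DMSO and 36287 to 37508 CPM with RSL3, which overlapped. The endothelial pair miR-126a-3p and miR-126a-5p summed to 642 to 701 CPM with DMSO and 781 to 907 CPM with RSL3. Its entries lay apart in opposite directions, miR-126a-3p at 614 ± 29.8 and 802 ± 72.5 CPM and miR-126a-5p at 58.5 ± 4.95 and 42.5 ± 9.29 CPM. For none of the lists of neuronal, leukocyte, erythroid, oligodendrocyte, endothelial, fibroblast or smooth muscle and liver markers did limma or edgeR call an entry over all miRNAs. DESeq2, the tool that called a member below, also called miR-126a-3p as higher and the smooth muscle marker miR-145a-5p as lower (adjusted p-values of 0.046 and 0.016). It called 8.31% of the 433 miRNAs to which it gave an adjusted p. The sum of the fibroblast or smooth muscle list, mostly miR-143-3p, was 37535 ± 1706 CPM with DMSO and 37023 ± 648 CPM with RSL3. The part of these markers in the results below was not tested.

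The members fell into 5 levels that did not touch in any library. miR-21a-5p ranked 4 of 685 by mean CPM and took 3.04% to 4.33% of a library. Its mean was 22.9 times that of miR-146b-5p (rank 66), which in turn was at 4.14 times miR-146a-5p (rank 127). miR-146a-5p was at 12.8 times miR-210-3p (rank 320), and miR-210-3p at 6.11 times miR-155-5p (rank 488). In each of these 4 steps the upper miRNA was the higher one in 6 of 6 libraries. miR-155-5p, miR-21a-3p (rank 490) and miR-146b-3p (rank 492) lay together between 2.36 and 7.12 CPM, and their order changed from library to library. Adapter ligation favours some sequences, so ratios between different miRNAs are ratios of reads rather than of molecules.

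RSL3 libraries had positive log2 fold changes in 6 of the 7 members, and 0 of the 7 passed the test over all miRNAs (limma, Benjamini-Hochberg adjusted p of 0.05 or less), where 0.751% of the 666 miRNAs tested were called. All 7 passed the filter on low values. The largest change in an abundant member was that of miR-146a-5p, at 1.43-fold, followed by miR-210-3p at 1.28-fold, miR-21a-5p at 1.23-fold and miR-146b-5p at 1.14-fold. At an unadjusted p under 0.05 in limma there was 1 member, miR-146a-5p, which was higher. Of all tested miRNAs 17.3% passed that level, and 8.86% of all tested miRNAs passed it as higher in RSL3 libraries. In 3 members, miR-21a-5p, miR-146a-5p and miR-210-3p, all RSL3 libraries lay above all DMSO libraries, as they did in 12.3% of the tested miRNAs. The median log2 fold change was 0.30 over the members and 0.0013 over all tested miRNAs, of which 50.2% had a positive value. Because 1 CPM was added before taking the log2, the fold changes of the scarce members are drawn toward no change.

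**Figure D1:**
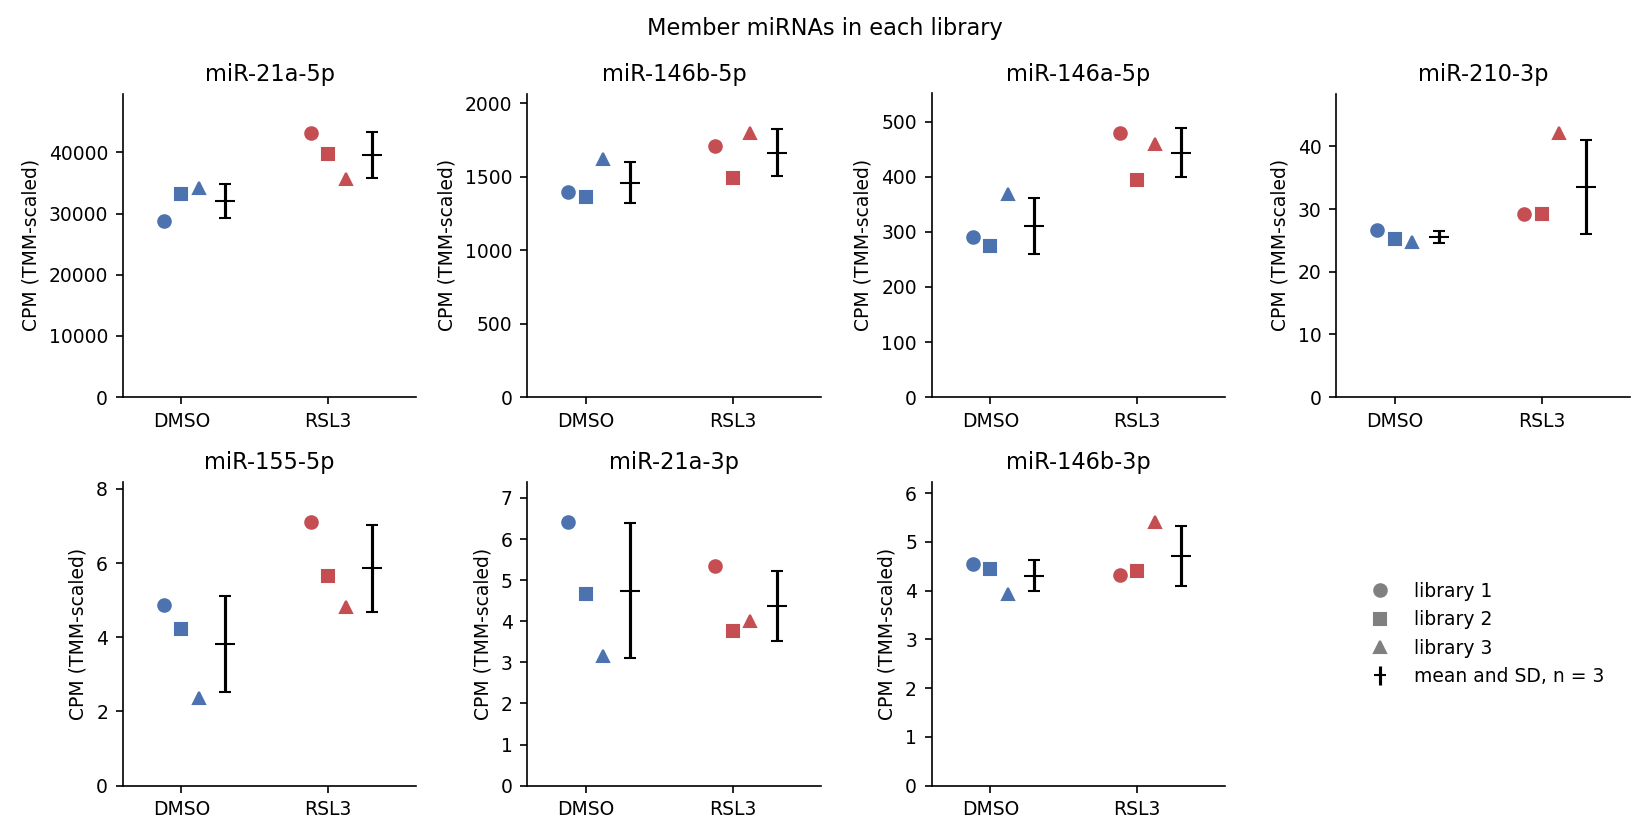
CPM of each of the 7 members (vertical axis from 0, one scale per panel) in the 3 DMSO and 3 RSL3 libraries; symbols mark the library number, and the bar beside them the mean and SD (n = 3). The RSL3 libraries lie above the DMSO libraries for miR-21a-5p, miR-146a-5p and miR-210-3p, and the groups overlap for the other 4.

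miR-146a-5p, the NF-kB-induced brake on Toll-like receptor signalling, was measured at 290, 274 and 369 CPM in DMSO libraries 1 to 3 and at 479, 393 and 459 CPM in RSL3 libraries 1 to 3. The groups did not overlap, but the gap between the highest DMSO library (369 CPM) and the lowest RSL3 library (393 CPM) was smaller than the SD of either group, which was 50.6 CPM for DMSO and 45.0 CPM for RSL3. The means were 311 ± 50.6 and 444 ± 45.0 CPM (SD, n = 3 per group). The log2 fold change was 0.52 ± 0.14 (SE), with a 95% interval of 1.17-fold to 1.76-fold and a limma adjusted p of 0.072. It ranked 18 of 666 by p. On the recovered reads edgeR's quasi-likelihood test also missed the threshold (adjusted p = 0.075), where edgeR called 0.901% of all miRNAs. DESeq2 called it higher (adjusted p = 0.026). Of the 433 miRNAs to which DESeq2 gave an adjusted p it called 8.31%, and 3.93% as higher. Without RSL3 library 2 limma called it as well (log2 fold change 0.60, adjusted p = 0.022), in a fit that called 19 of 656 miRNAs against 5 of 666 with all libraries. Over all alternatives the adjusted p ran from 0.022 to 0.352.

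miR-146b-5p, its relative with the same seed from another chromosome, was at 1396, 1363 and 1621 CPM in DMSO libraries 1 to 3 and at 1707, 1490 and 1798 CPM in RSL3 libraries 1 to 3. DMSO library 3 was above RSL3 library 2, so the groups overlapped. The means were 1460 ± 141 and 1665 ± 158 CPM, a log2 fold change of 0.19 ± 0.12 (SE), with an interval from 0.954-fold to 1.36-fold and a limma adjusted p of 0.43. Across the 6 libraries the 2 relatives varied together, with a Pearson's r of log2(CPM + 1) of 0.920. Both groups were pooled for r, so a difference between the groups enters it. Of the 416 other miRNAs with a mean of at least 10 CPM none was closer to miR-146b-5p than miR-146a-5p. The reverse did not hold, as miR-148b-5p (0.956), miR-467e-3p (0.952) and miR-5100 (0.945) were closer to miR-146a-5p. The labels do not say how reads that match both relatives were assigned.

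Because both relatives carry 1 seed, their sum and their ratio within a library were also computed, a choice made after their values were seen. The sum was 1686, 1637 and 1990 CPM with DMSO and 2186, 1883 and 2258 CPM with RSL3, and DMSO library 3 again lay above RSL3 library 2 (exact permutation p = 0.2, two-sided). The ratio of miR-146b-5p to miR-146a-5p does not depend on the library scaling. It was 4.81, 4.97 and 4.39 in DMSO and 3.56, 3.79 and 3.91 in RSL3 libraries, with means of 4.72 ± 0.30 and 3.76 ± 0.18 (SD, n = 3 per group). All RSL3 libraries lay below all DMSO libraries (exact permutation p = 0.1, the smallest that 3 against 3 libraries allow). miR-146a-5p thus made up 17.5% ± 0.92 of the reads with this seed in DMSO and 21.0% ± 0.80 in RSL3 libraries.

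**Figure D2:**
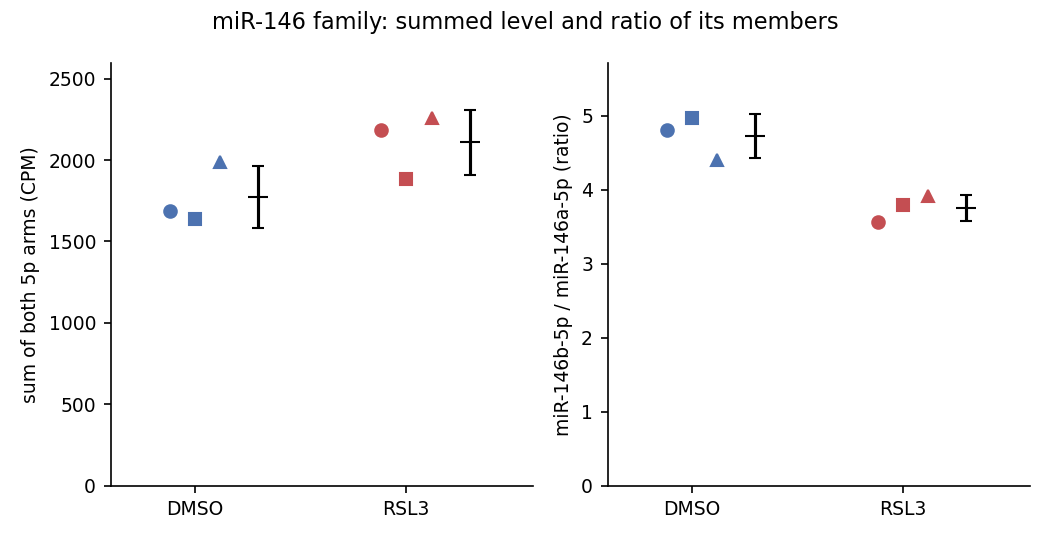
Left, summed CPM of miR-146a-5p and miR-146b-5p; right, ratio of miR-146b-5p to miR-146a-5p, for the 3 DMSO and 3 RSL3 libraries (circle, square and triangle for libraries 1 to 3; bar, mean and SD, n = 3; both axes from 0). The sums overlap between the groups, and the ratios, 4.39 to 4.97 in DMSO and 3.56 to 3.91 in RSL3 libraries, do not.

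miR-155-5p, the miRNA that sustains inflammatory signalling in immune cells, was close to the detection limit. Its reads numbered 31, 19 and 12 in DMSO and 28, 18 and 24 in RSL3 libraries, or 4.86, 4.22 and 2.36 CPM and 7.12, 5.65 and 4.81 CPM. DMSO library 1 was slightly above RSL3 library 3. The SD between libraries, 1.30 CPM in DMSO and 1.17 CPM in RSL3, was near the counting error alone, 0.849 and 1.23 CPM. The log2 fold change of 0.54 ± 0.27 (SE) had an interval from 0.974-fold to 2.16-fold (limma adjusted p = 0.32), so neither no change nor a doubling lay outside it. DMSO library 3 was the lowest, and the log2 fold change was 0.30 without it.

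miR-21a-5p, the growth- and injury-associated miRNA, was at 28839, 33182 and 34119 CPM in DMSO libraries 1 to 3 and at 43151, 39692 and 35638 CPM in RSL3 libraries 1 to 3. The lowest RSL3 library exceeded the highest DMSO library by less than the SD of either group. The means were 32047 ± 2817 and 39494 ± 3760 CPM, and the log2 fold change of 0.30 ± 0.14 (SE) had an interval from 1.00-fold to 1.52-fold (limma adjusted p = 0.29, unadjusted p = 0.050). With 126489 to 184026 reads per library, counting error was 78.7 CPM with DMSO and 101 CPM with RSL3, far under the SD between libraries.

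Its seed relative miR-21c had only 7, 12 and 8 reads in DMSO and 13, 7 and 13 reads in RSL3 libraries. That was 0.0038% to 0.0080% of the miR-21a-5p level, and the groups overlapped (log2 fold change 0.44 ± 0.28 SE, limma adjusted p = 0.43). The labels do not say how mismatched reads were assigned.

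The other arm of the miR-21a hairpin, miR-21a-3p, had 41, 21 and 16 reads in DMSO and 21, 12 and 20 reads in RSL3 libraries. Its levels of 6.43, 4.66 and 3.15 CPM with DMSO enclosed those of 5.34, 3.77 and 4.01 CPM with RSL3. The log2 fold change was -0.07 ± 0.26 (SE), with an interval from 0.642-fold to 1.42-fold (limma adjusted p = 0.91). It was the only member with a negative value, and leaving out DMSO library 1 (0.14) or RSL3 library 2 (0.01) turned the sign positive. miR-146b-3p was at 4.54, 4.44 and 3.94 CPM with DMSO and 4.32, 4.39 and 5.41 CPM with RSL3, which overlapped (log2 fold change 0.10 ± 0.22 SE, limma adjusted p = 0.84). For these 2 arms and miR-155-5p DESeq2 gave no adjusted p.

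The balance of arms in the 2 hairpins with both arms listed was tested as the log2 ratio of 5p to 3p, within a fit over 182 precursors. The 3p arm of miR-21a made up 0.0092% to 0.0223% of both arms in the 6 libraries, with exact 95% binomial limits (counting error only) of 0.0049% and 0.0302% at the extremes. This was the smallest share of a rarer arm among the 182 precursors, where the median was 10.1%. Both arms had to pass the filter on low values, so only an abundant precursor could reach so small a share. Precursors whose 3p arms are named by locus, such as those of miR-7a and miR-218, were not among the 182. For miR-146b the 3p arm made up 0.242% to 0.325%, rank 15 from the lowest. The log2 ratio of miR-21a was 12.5 ± 0.54 in DMSO and 12.9 ± 0.15 in RSL3 libraries (SD, n = 3 per group). It differed by 0.37 ± 0.35 (SE), with a limma adjusted p of 0.62. For miR-146b it was 8.10 ± 0.22 and 8.19 ± 0.12, a change of 0.09 ± 0.22 (SE, limma adjusted p = 0.88). Of the 2 ratios 0 were called in limma, the only tool used for them, and 0 had an unadjusted p under 0.05, while 2.75% of the precursors were called. With at most 41 reads of a 3p arm in a library, the limits of the change were wide, from -0.42 to 1.16 on the log2 scale for miR-21a.

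**Figure D3:**
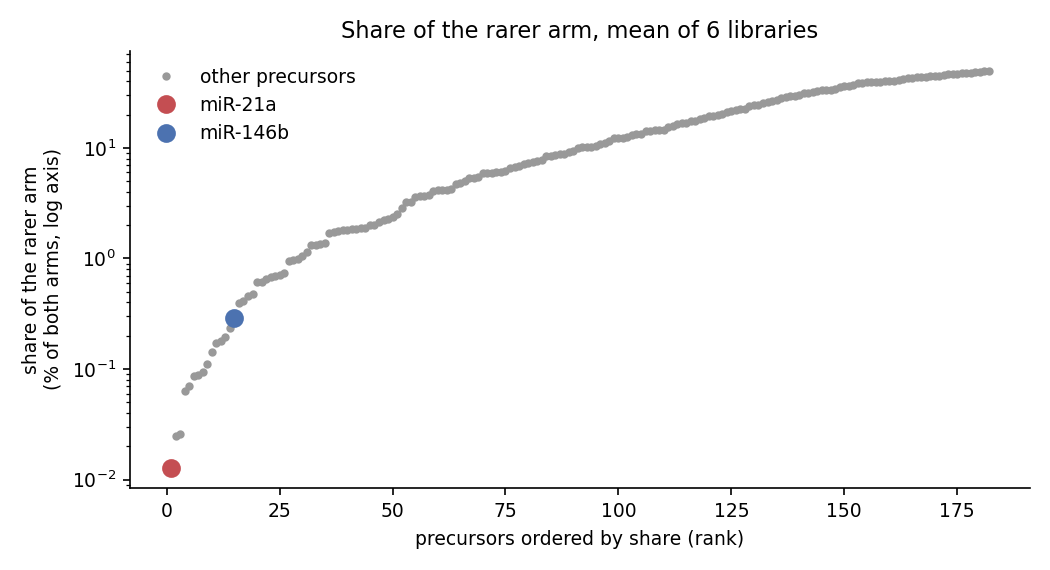
Share of the rarer arm (percent of both arms, mean of 6 libraries, log axis) for 182 precursors ordered by that share. miR-21a has the lowest share (0.0127%) and miR-146b the fifteenth lowest (0.288%), against a median of 10.1%.

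miR-210-3p, the HIF-1-responsive member, was at 26.6, 25.3 and 24.8 CPM in DMSO libraries 1 to 3 and at 29.2, 29.2 and 42.1 CPM in RSL3 libraries 1 to 3. The DMSO libraries agreed within counting error (SD 0.952 CPM against 2.21 CPM from counting), whereas RSL3 library 3 stood well above the other two. The means were 25.6 ± 0.95 and 33.5 ± 7.45 CPM, with a log2 fold change of 0.36 ± 0.18 (SE), an interval from 0.977-fold to 1.68-fold and a limma adjusted p of 0.32. Without RSL3 library 3 the log2 fold change was 0.19 (limma adjusted p = 0.74). The separation of the groups also depended on the scaling: with every library set to the same total, the highest DMSO library was at 28.1 CPM and the lowest RSL3 library at 27.3 CPM. For miR-21a-5p and miR-146a-5p the groups stayed apart under each of the 5 scalings compared. Those of miR-155-5p overlapped under each except median centring, where the RSL3 libraries lay above the DMSO libraries.

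**Figure D4:**
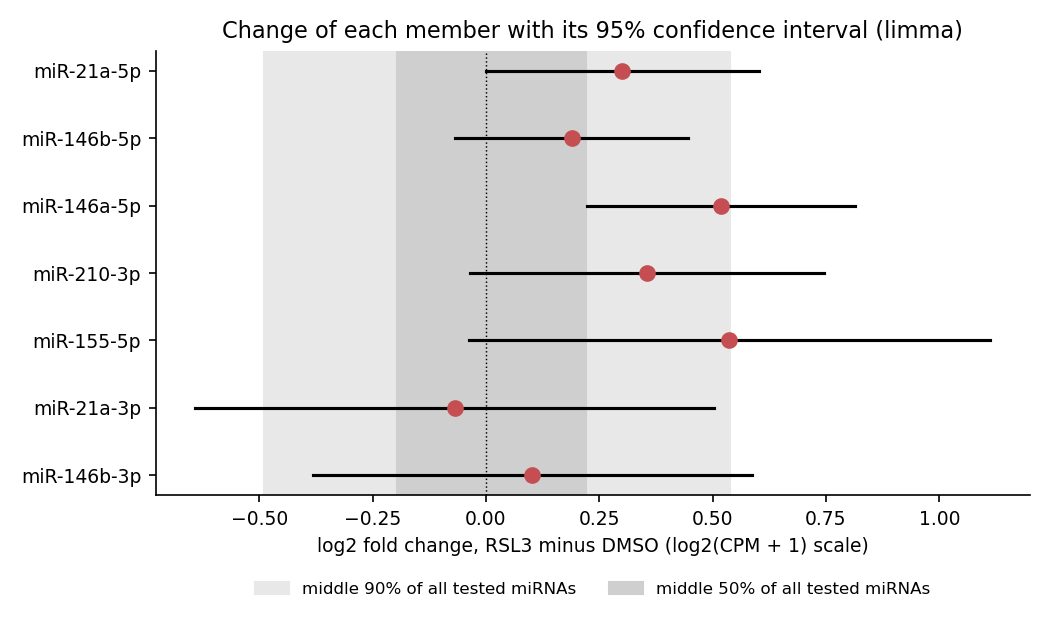
Log2 fold change of each member (point; RSL3 minus DMSO, log2(CPM + 1) scale) with its 95% confidence interval from limma (line). The light and dark bands span the 5 to 95 and the 25 to 75 percentiles of all 666 tested miRNAs (-0.49 to 0.54 and -0.20 to 0.22). The interval of miR-146a-5p lies above 0, that of miR-21a-5p starts at about 0, and the other 5 include 0.

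The summed level of the 7 members was 30568, 34857 and 36143 CPM with DMSO and 45383, 41619 and 37952 CPM with RSL3, which did not overlap (exact permutation p = 0.1, two-sided, the smallest possible). miR-21a-5p made up 93.9% to 95.4% of that sum. Without it the sums were 1729, 1675 and 2024 CPM with DMSO and 2232, 1926 and 2314 CPM with RSL3, and DMSO library 3 lay above RSL3 library 2 (exact permutation p = 0.2).

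Among other miRNAs tied to NF-kB or Toll-like receptor signalling, such as miR-9, miR-132, miR-125b and miR-181b, 35 were tested and 0 passed in limma or edgeR. At an unadjusted p under 0.05 in limma 2 were higher and 5 lower, 15 had a positive and 20 a negative log2 fold change, and their median was -0.03 against 0.0013 over all miRNAs. Of all 666 miRNAs tested 17.3% were under that p, 59 as higher and 56 as lower, and limma and edgeR called 0.751% and 0.901%. The groups did not overlap in 11 of the 35, 2 higher and 9 lower, where 24.3% of all miRNAs did not overlap. By direction these were 82 higher and 80 lower of the 666 tested. The 3 with the smallest p were all lower in RSL3 libraries: miR-301a-5p (46.2 ± 10.7 against 23.8 ± 8.25 CPM, limma adjusted p = 0.072), miR-301a-3p (14.1 ± 0.86 against 8.65 ± 0.44 CPM, limma adjusted p = 0.095) and the let-7 relative miR-98-5p (126 ± 14.1 against 92.7 ± 7.26 CPM, limma adjusted p = 0.10). DESeq2 gave no adjusted p to 6 of the 35 and called 1, miR-301a-5p. Over all it called 8.31% of the 433 miRNAs with an adjusted p. The 3 most abundant had log2 fold changes of 0.39 (miR-9-5p), -0.04 (miR-23b-3p) and -0.10 (let-7e-5p). The miR-9 entries of this list are also among the neuronal markers above.

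Among other miRNAs tied to low oxygen, such as miR-107, miR-181c and miR-322, 37 were tested and 0 passed in limma or edgeR. The miR-199a entries belong to both this list and the one before, and to the fibroblast or smooth muscle markers. At an unadjusted p under 0.05 in limma 3 were higher and 1 lower, 24 had a positive and 13 a negative log2 fold change, and their median was 0.08. The share of all miRNAs under that p was 17.3% (59 higher and 56 lower of 666), and the shares called by limma and edgeR were 0.751% and 0.901%. The groups did not overlap in 7 of the 37, 5 higher and 2 lower, against 24.3% of all miRNAs (82 higher and 80 lower of 666). The smallest p belonged to miR-24-1-5p (33.3 ± 2.11 against 48.2 ± 5.41 CPM, limma adjusted p = 0.095). Next were miR-23a-3p (685 ± 61.0 against 897 ± 115 CPM, limma adjusted p = 0.11) and miR-199a-3p (611 ± 97.2 against 478 ± 41.1 CPM, limma adjusted p = 0.19). DESeq2 gave no adjusted p to 7 of the 37 and called 1, miR-24-1-5p, against 8.31% of the 433 miRNAs with an adjusted p over all. The 3 most abundant, miR-218-5p, miR-30d-5p and miR-26a-5p, had log2 fold changes of -0.28, -0.06 and -0.11.

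The miRNAs whose levels followed a member most closely over the 6 libraries, outside its own stem, differed between members. The values are Pearson's r of log2(CPM + 1), chosen as the highest of 416 candidates that share the same libraries and scaling, so high values arise readily. Group means were not removed, so differences between the groups also enter r. For miR-21a-5p they were miR-471-5p (0.995), miR-30c-5p (0.969) and miR-467c-5p (0.961). For miR-146a-5p they were miR-148b-5p (0.956), miR-467e-3p (0.952) and miR-5100 (0.945). For miR-210-3p they were miR-375-3p (0.998), miR-99b-5p (0.968) and miR-143-5p (0.906), and after miR-146a-5p those of miR-146b-5p were miR-192-5p (0.872) and miR-690 (0.869). Over the pairs of members from different stems r ran from -0.36 (miR-146b-5p with miR-21a-3p) to 0.920 (the miR-146 5p arms), with 0.893 for miR-210-3p with miR-146b-3p, 0.790 for miR-21a-5p with miR-146a-5p and 0.266 for miR-21a-5p with miR-210-3p.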

How the data were processed

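Small RNA libraries of 3 DMSO and 3 RSL3 samples were analysed. Per the submitters' processing notes, the authors used cutadapt, Bowtie and edgeR with the build GRCm38. For their versions, their settings and reads that match several miRNAs, nothing is stated in the labels. The deposited signal, which the authors named CPM, summed to 949375 to 1068892 per library. Every value was a whole number of reads within 0.01, and reads times the TMM factor (0.936 to 1.05) gave its divisor, so the deposited signal is TMM-scaled CPM. The design had assumed plain CPM.

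The members and lists were chosen with earlier results of these data known. Levels were tested on log2(CPM + 1) by limma 3.58.1 (R 4.3.3), two-sided and with a variance trend, for miRNAs with at least 1 CPM in at least 3 libraries (666 of 685). Recovered reads were tested with edgeR 4.0.16 and DESeq2 1.42.0 as alternatives. On simulated data with 657 miRNAs, the share of changes found by the level test was 53.8% at 1.5-fold, 86.2% at 2-fold and 98.5% at 4-fold. Changes were put into a far larger share of the miRNAs than was called in the data, which makes the adjusted p more lenient. These shares may therefore be too high for the data, and no change under 1.5-fold was simulated. Named were all members, their seed relatives, in each related list the 3 most abundant miRNAs and the 3 with the smallest p, and the 3 most alike per abundant member. Replicates differed by far more than counting noise (chi-square per degree of freedom 73.0 to 257).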

Additional observations from a re-analysis of the deposited data

How the results depend on the processing

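Over 19 alternatives (pseudocount, filter, scaling, variance model, replicate block, edgeR, DESeq2, and leaving out each library) the count of called members, 0 as reported, was 1 in DESeq2 (miR-146a-5p) and 0 to 1 over the fits that each lacked a library. The log2 fold changes of miR-21a-5p (0.21 to 0.37), miR-146a-5p (0.43 to 0.65), miR-146b-5p (0.13 to 0.27), miR-210-3p (0.19 to 0.44), miR-155-5p (0.30 to 0.70) and miR-146b-3p (0.02 to 0.15) kept their sign in every alternative that gave a value. That of miR-21a-3p, -0.07 as reported, ran from -0.28 to 0.14 over the same fits and was positive without DMSO library 1 (0.14) and without RSL3 library 2 (0.01). For these differences the cause was not tested. The arm ratios gave 0 calls in every alternative run. With a filter of 10 CPM, miR-155-5p, miR-21a-3p, miR-146b-3p and both arm ratios were not tested. The difference in the summed level, 7795 CPM, ran from 5929 to 9645 CPM with single libraries left out.

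The count of called miRNAs over all those tested, 5 as reported, was 3 with plain CPM, 16 after rescaling without the 5 most abundant, 36 in DESeq2, 1 without a variance trend and 1 to 19 with single libraries left out. Libraries with the same number did not deviate together (r of -0.35, -0.33 and -0.19 over 666 miRNAs). With 3 libraries per group such values cannot decide whether the numbers pair the samples, and the labels do not say. The fit with the replicate number as a block gave 1 call over all miRNAs and 0 members (miR-146a-5p: adjusted p = 0.35), and 0 arm ratios. Depth limits miR-155-5p, miR-21c and the 3p arms most, with 7 to 41 reads per library.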
